A study of Capra hircus with 6 samples.

Results

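The very long lncRNAs of the goat hypothalamus are the long noncoding RNAs of 4000 nt or more whose locus holds no other lncRNA transcript. They were chosen by transcript length and locus identifier alone, and 86 of the 2943 lncRNA transcripts met both conditions. Of the 137 lncRNA transcripts of at least 4000 nt, the other 51 came from loci with several transcripts and served for comparison. The shortest of the 86 had 4030 nt, the median one 5639 nt and the longest 23207 nt. Of the 86, 52 had 4000 to 6000 nt, and 9 had at least 10000 nt.

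Hypothalamus was taken from 3 pubertal female Anhuai goats of 4.5 to 5 months and 3 prepubertal female Anhuai goats of 2.5 to 3 months, all kept on the same farm and given no treatment other than terminal anaesthesia. Pubertal goats were sampled late in the follicular phase, so age, body size and ovarian phase cannot be told apart between the stages. Each goat gave 1 strand-specific library of total RNA from which ribosomal RNA had been removed. Levels are in FPKM, fragments scaled to the length of the transcript in kilobases and to the mapped fragments of the library. The tables of FPKM give no counts, and how many fragments stand behind any one value is therefore unknown.

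Long noncoding RNAs are transcripts that are not translated into a known protein, and many are spliced, capped and polyadenylated like messenger RNAs. Well studied long ones, such as NEAT1, stay in the nucleus, where they hold proteins together in nuclear bodies or act on the chromatin of neighbouring genes. The hypothalamus starts puberty by releasing gonadotropin-releasing hormone in pulses, and the comparison of the stages asks whether the noncoding transcripts differ between goats before and after that change.

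The tissue label was checked against marker genes. Here and below, the FPKM of a gene is the sum over its transcripts. Of 10 hypothalamic marker genes, 6 were in the table and OXT, HCRT, TRH and NKX2-1 were not analysed here. Means over the 6 libraries were 1493 FPKM for PMCH, the precursor of melanin-concentrating hormone, 107 for POMC, 58.7 for AGRP, 11.2 for GNRH1 and 3.56 for SIM1. AVP was listed at 0 in all 6 libraries, and MBP, a myelin gene at a mean of 1256 FPKM, was listed at 0 in prepubertal 1, so a value of 0 was not read as absence. The cortical marker TBR1 was low, at a mean of 0.113 FPKM. Summed anterior pituitary markers, of which 3 of 4 genes were in the table, ran from 47.8 to 62.5 FPKM in the pubertal and from 2.32 to 18.0 FPKM in the prepubertal goats. This sum was mostly CGA, at 39.4 to 62.5 FPKM and 2.24 to 18.0 FPKM. GH1 was listed at 0 outside pubertal 3, and POU1F1 did not exceed 0.539 FPKM. Summed choroid plexus markers, with 4 of 4 genes in the table, ran from 4.01 to 314 FPKM and from 5.81 to 56.5 FPKM. The highest sum, in pubertal 3, was almost all TTR, at 309 FPKM.

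The very long lncRNAs were more abundant per unit length than the shorter lncRNAs as a whole, though not than every shorter length class. Their median level was 1.195, 1.017 and 1.365 FPKM in pubertal libraries 1, 2 and 3, and 1.073, 1.223 and 1.183 FPKM in prepubertal libraries 1, 2 and 3. The stages overlapped, with the highest median in pubertal 3 and the lowest in pubertal 2. The mean of the 6 library medians was 1.18 ± 0.122 FPKM (SD, n = 6), against 0.508 ± 0.0351 FPKM for the 2806 lncRNAs under 4000 nt, which is 2.31 times as high. The very long lncRNAs lay above the shorter ones in 6 of 6 libraries, by 1.21 ± 0.12 (SD, n = 6) on the log2 scale. They also lay above the 51 long transcripts of loci with several transcripts in 6 of 6 libraries, where the mean of the medians was 0.883 ± 0.114 FPKM.

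By length class, the difference was gradual. Among loci with 1 transcript, the median of the mean levels was 1.01 FPKM at 200 to 300 nt, where most transcripts were at 0 in some library, and 0.403 FPKM at 301 to 600 nt. It then rose to 0.565 FPKM at 1001 to 2000 nt, 0.854 FPKM at 2001 to 3000 nt and 0.924 FPKM at 3001 to 3999 nt. The 52 very long lncRNAs of 4000 to 6000 nt, at 0.990 FPKM, lay close to the class just below them, and the 34 above 6000 nt were at 1.37 FPKM.

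Messenger RNAs of the same length were higher still. The 6602 coding RefSeq transcripts of at least 4000 nt had a mean library median of 3.10 ± 0.176 FPKM (SD, n = 6), above the very long lncRNAs in all 6 libraries. The 100 noncoding RefSeq transcripts of that length lay close by, at 1.01 ± 0.0765 FPKM, and the very long lncRNAs were higher than these in 4 of 6 libraries. The libraries are shared by all classes, so no p-value was given for the order of the classes.

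Because length enters FPKM as a divisor, the classes differed much more in FPKM times length than in FPKM. The median very long lncRNA corresponded to 7.22 in FPKM times length in kilobases, against 0.412 for the lncRNAs under 4000 nt. This product only estimates the fragments of a transcript, scaled for depth, since counts are not given. Together the 86 transcripts held between 3.87% and 4.74% of the summed lncRNA FPKM of a library. Of its summed FPKM times length over all lncRNAs they held between 25.1% and 27.2%.

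Among themselves, the mean levels of the 86 ran from 0.408 to 29.8 FPKM with a median of 1.16 FPKM. A mean of at least 1 FPKM was reached by 52 of them, at least 5 FPKM by 6 and at least 10 FPKM by 3. The 3 most abundant held between 28.9% and 34.7% of the FPKM of all 86 in a library. Across the 86, Spearman's rho between length and mean FPKM was 0.221, as a description of transcripts measured in the same libraries.

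**Figure D1:**
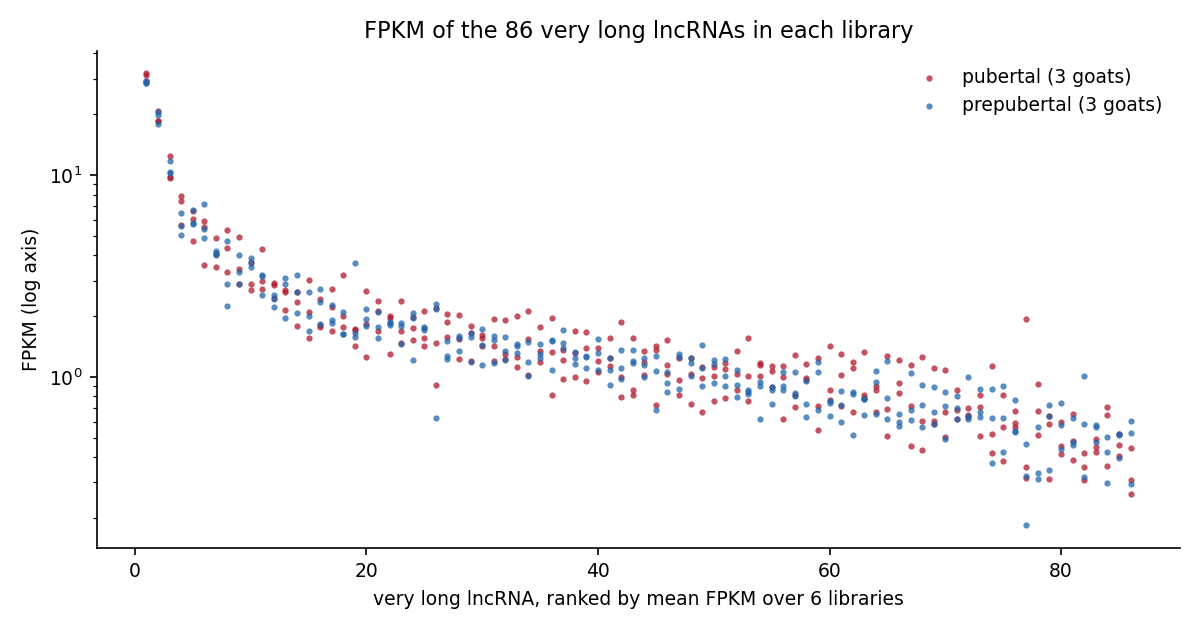
FPKM of each of the 86 very long lncRNAs in each library, ranked by mean FPKM on the x axis with a log y axis, 1 point per library (red, 3 pubertal goats; blue, 3 prepubertal goats). The 4 most abundant transcripts stand above 5 FPKM in every library and the colours mix along most of the range, which falls to a mean of 0.408 FPKM.

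The 5 most abundant very long lncRNAs are shown by their starts, so that each can be recognised, as the first 80 bases from the 5′ end of the deposited transcript with CpG pairs in capitals. A start need not have the composition of the whole: that of TCONS_03153667 has 33.8% GC and the transcript 51.6%, and that of TCONS_00895218 has 61.3% and the transcript 40.7%.
TCONS_03153667: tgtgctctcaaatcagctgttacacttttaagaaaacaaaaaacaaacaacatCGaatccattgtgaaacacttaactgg
TCONS_00895218: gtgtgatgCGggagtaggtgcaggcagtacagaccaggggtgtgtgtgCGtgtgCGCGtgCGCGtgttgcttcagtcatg
TCONS_04948042: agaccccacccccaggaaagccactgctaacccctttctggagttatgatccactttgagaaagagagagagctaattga
TCONS_01599241: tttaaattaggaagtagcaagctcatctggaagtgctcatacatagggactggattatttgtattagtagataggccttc
TCONS_03464510: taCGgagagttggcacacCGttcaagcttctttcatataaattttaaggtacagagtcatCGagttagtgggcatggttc

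The most abundant, TCONS_03153667 (locus XLOC_1513626, 5827 nt), lies within 10 kb of PSD3, which encodes an exchange factor for the small GTPase ARF6. Its level was 31.9, 31.2 and 29.3 FPKM in the pubertal and 29.1, 28.7 and 28.5 FPKM in the prepubertal libraries. All pubertal values lay above all prepubertal ones, but the gap between the nearest values was small. It ranked 13 among all lncRNA transcripts by mean FPKM.

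TCONS_00895218 (XLOC_475183) was both the second in abundance and, at 12375 nt, among the 5 longest. It lies near LECT1, which encodes chondromodulin, and SUGT1, which encodes a partner of the HSP90 chaperone. Its level was 20.7, 18.6 and 18.5 FPKM in the pubertal and 19.8, 20.5 and 17.9 FPKM in the prepubertal goats, so that the stages overlapped.

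TCONS_04948042 (XLOC_2423839, 5457 nt), near CHIC1, was the next in level and is also named in the study's own tables. It stood at 12.4, 9.66 and 9.76 FPKM in the pubertal libraries and at 10.3, 11.7 and 10.2 FPKM in the prepubertal ones, with pubertal 1 the highest and no separation of the stages.

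TCONS_01599241 (XLOC_777902, 6706 nt) lies near MFSD4, which encodes a putative membrane transporter, and ELK4, an ETS transcription factor. Its values were 7.92, 5.64 and 7.47 FPKM in the pubertal and 5.05, 6.47 and 5.57 FPKM in the prepubertal goats. Here 2 of the 3 pubertal values exceeded every prepubertal one. TCONS_03464510 (XLOC_1684172, 7036 nt), with no gene listed within 10 kb, had 6.65, 6.06 and 4.73 FPKM in the pubertal and 5.74, 5.81 and 6.70 FPKM in the prepubertal goats, which overlapped.

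Apart from TCONS_00895218, the longest transcripts were of moderate level. TCONS_01233022 (XLOC_590227), the longest at 23207 nt, had 4.32, 2.73 and 2.99 FPKM in the pubertal and 3.17, 3.19 and 2.55 FPKM in the prepubertal libraries, with pubertal 1 above the rest. TCONS_04427035 (XLOC_2068818, 15673 nt), near the teneurin adhesion gene TENM2, ran from 1.68 to 2.38 FPKM in the pubertal and from 1.55 to 2.098 FPKM in the prepubertal goats. TCONS_00221322 (XLOC_192564, 15370 nt) had a mean of 1.38 FPKM, and TCONS_04793913 (XLOC_2291622, 13437 nt), near NKAIN2, which encodes a partner of the sodium pump, a mean of 1.27 FPKM. The stages overlapped in these 4 longest transcripts.

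At the lower length limit, the shortest transcripts taken in and the longest left out did not fall apart by level. TCONS_00195666 (4030 nt) and TCONS_01405251 (4058 nt) had mean levels of 2.56 and 0.553 FPKM. Just outside, TCONS_00753944 (3964 nt) and TCONS_04787736 (3935 nt) had 0.767 and 3.23 FPKM.

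Every very long lncRNA was detected in every library. All 86 (100%) were above 0 in all 6 libraries and also at 0.1 FPKM or more in all 6, while 36 (41.9%) were at 1 FPKM or more in all 6. Of the lncRNAs under 4000 nt, 1371 of 2806 (48.9%) were above 0 in all 6 libraries and 263 (9.37%) at 1 FPKM or more. Of the 490 lncRNAs of 200 to 300 nt, 30 (6.12%) were above 0 in all 6.

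Detection rose with length in steps well below the limit of 4000 nt. Among loci with 1 transcript, the share above 0 in all 6 libraries was 6.41% at 200 to 300 nt, 19.6% at 301 to 600 nt, 68.3% at 601 to 1000 nt and 92.9% at 1001 to 2000 nt. It was 98.6% at 2001 to 3000 nt and 100% at 3001 to 3999 nt, so that complete detection was not particular to the very long ones. All 51 long transcripts of loci with several transcripts were detected in all 6 libraries too, against 5322 of 6602 coding transcripts of that length (80.6%). The lncRNAs were assembled from these libraries and the coding transcripts taken from an annotation, and a longer transcript gathers more fragments at the same FPKM. The part of both in the detection was not tested.

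The very long lncRNAs also varied less between goats of a stage than the other lncRNAs did. Their median coefficient of variation within a stage was 20.8%, against 78.2% for the lncRNAs under 4000 nt and 17.1% for the coding transcripts of at least 4000 nt. It was 33.9% for the 51 long transcripts of loci with several transcripts. Of the lncRNAs under 4000 nt only 48.9% were above 0 in all 6 libraries, and as a class they had fewer estimated fragments each. The part of both in their variation was not tested. The highest library was between 1.12 and 10.5 times the lowest, with a median of 1.74 times.

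The very long lncRNAs were AT-rich. Their median GC content was 40.5%, with quartiles of 38.3% and 45.6%, against a median of 47.9% with quartiles of 43.0% and 53.4% for the lncRNAs under 4000 nt. A GC content below 40% was found in 38 of the 86 (44.2%) and in 13.4% of the shorter ones, and one above 50% in 13 (15.1%) and in 39.7%. The long transcripts of loci with several transcripts had a median of 42.2%. CpG pairs were at a median of 0.223 of the number that the C and G content predicts, against 0.305 in the shorter lncRNAs.

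GC content was level up to 1000 nt and fell with length above it. The median of loci with 1 transcript was 49.1% both at 200 to 300 nt and at 601 to 1000 nt, 46.4% at 1001 to 2000 nt and 45.02% at 3001 to 3999 nt. It was 41.3% in the 52 transcripts of 4000 to 6000 nt and 40.3% in the 34 above 6000 nt. Within the very long lncRNAs, Spearman's rho was -0.0495 between length and GC content and -0.0633 between GC content and mean FPKM.

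**Figure D2:**
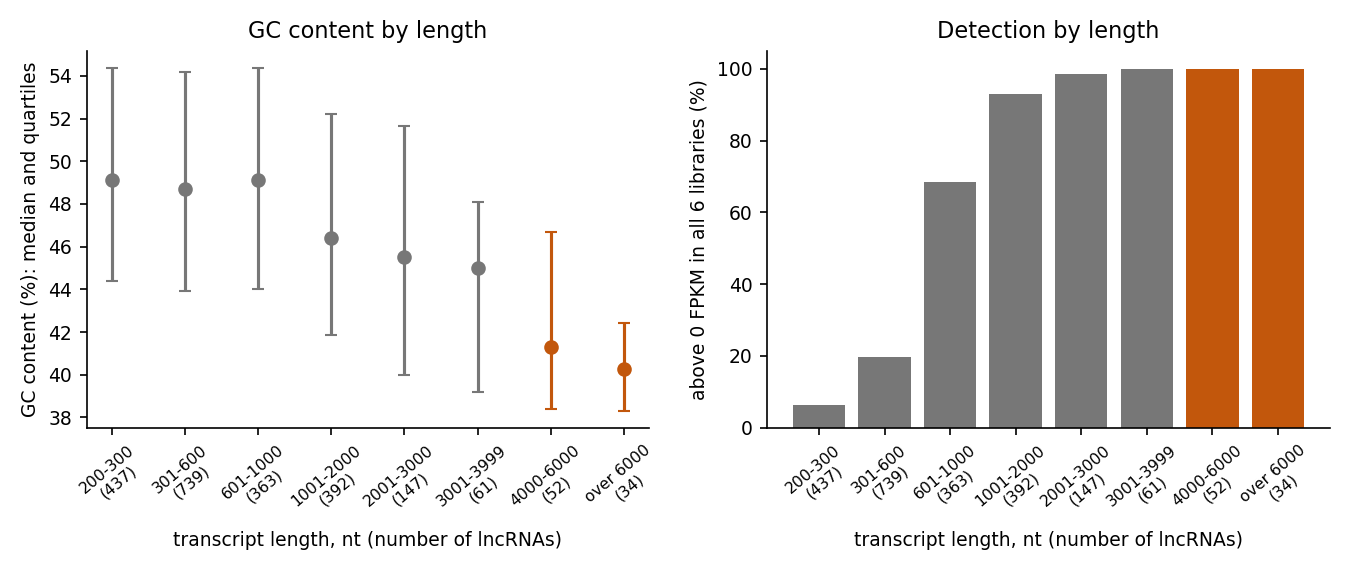
GC content (left, median as a point and quartiles as bars, in percent) and the share of transcripts above 0 FPKM in all 6 libraries (right, in percent) for lncRNAs of loci with 1 transcript, by length in nt with the number of lncRNAs in brackets (grey, under 4000 nt; orange, the 86 very long ones). GC content falls from a median of 49.1% to 40.3%, and detection rises from 6.41% to 100%.

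The extremes of base composition are shown by a stretch of 120 bases each, the first in the transcript whose GC content is close to that of the whole, with CpG pairs in capitals. TCONS_04948042 and TCONS_00956805 had the lowest GC content, at 32.1% and 32.1%, and the stretches hold no CpG. TCONS_03478792 and TCONS_01056985 had the highest, at 59.9% and 58.2%, and hold 6 and 5 CpG pairs.
TCONS_04948042, bases 49 to 168: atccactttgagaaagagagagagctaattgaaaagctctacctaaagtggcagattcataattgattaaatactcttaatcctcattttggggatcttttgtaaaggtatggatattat
TCONS_00956805, bases 20 to 139: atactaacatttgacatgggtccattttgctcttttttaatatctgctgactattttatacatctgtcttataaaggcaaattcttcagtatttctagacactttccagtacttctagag
TCONS_03478792, bases 335 to 454: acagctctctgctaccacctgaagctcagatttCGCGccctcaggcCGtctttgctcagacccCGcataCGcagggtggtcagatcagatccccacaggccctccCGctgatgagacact
TCONS_01056985, bases 19 to 138: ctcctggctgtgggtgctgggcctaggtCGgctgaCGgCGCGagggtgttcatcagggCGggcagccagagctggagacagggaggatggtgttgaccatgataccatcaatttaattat

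TCONS_03478792 (XLOC_1722321, 4402 nt) lies within 10 kb of RNPEPL1, an aminopeptidase gene, and CAPN10, a calpain protease gene, and had 3.50, 4.90 and 4.05 FPKM in the pubertal and 4.13, 4.21 and 3.999 FPKM in the prepubertal goats. TCONS_01056985 (XLOC_571949, 8600 nt) lies near NOL4L and had 1.30, 1.96 and 2.003 FPKM against 1.80, 1.88 and 1.85 FPKM. The stages overlapped in both, and the prepubertal values lay closer together than the pubertal ones did. The AT-rich TCONS_00956805 (XLOC_496386, 5430 nt) had no listed neighbour and 0.548, 0.717 and 1.24 FPKM against 0.688, 1.05 and 1.19 FPKM.

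Longer transcripts held longer open reading frames. The longest frame from an ATG to a stop codon on the sense strand had a median of 93.5 codons in the very long lncRNAs, from 44 to 192, and 35 of the 86 (40.7%) had one above 100 codons. So had 26 of the 51 long transcripts of loci with several transcripts (51.0%), and 252 of the lncRNAs under 4000 nt (8.98%). Among the 86, the longest was the 192 codons of the GC-rich TCONS_03478792. These transcripts had passed the study's filters for coding potential, and a frame of this length in a long transcript was not read as a protein.

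A polyadenylation hexamer near the 3′ end was rare. AATAAA or ATTAAA, searched on the sense strand only, stood within the last 50 bases of 12 of the 86 (14.0%), against 9.19% of the lncRNAs under 4000 nt and 9.38% of all lncRNAs. The share was 11.8% in the long transcripts of loci with several transcripts. In 6 of the 12 the last hexamer ended 10 to 30 bases before the end of the transcript, the usual place of a used signal, and 3 of these ends are shown with the hexamer in capitals. The libraries were made from total RNA, and an assembled end need not be the end of the molecule.
TCONS_01977976: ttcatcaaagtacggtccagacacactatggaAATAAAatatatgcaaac
TCONS_04375632: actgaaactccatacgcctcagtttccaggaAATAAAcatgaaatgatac
TCONS_04552703: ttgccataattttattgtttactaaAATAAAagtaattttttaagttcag

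Most very long lncRNAs shared short stretches with other lncRNAs. A stretch of at least 100 nt at 80% identity or more was shared with another lncRNA by 67 of the 86 and with another very long lncRNA by 59, in 221 pairs. The stretches covered a median of 4.38% of a transcript and at most 22.8%, in TCONS_02120800, and the longest between members of the 86 was 355 nt. The authors' handling of reads that map to several places is not given in the sources used here, so values resting on these stretches are uncertain. The most similar stretch of at least 300 nt was 347 nt at 95.1% identity between TCONS_00220432 and the reverse complement of TCONS_02780309, and 120 of its bases are shown, with the 6 differences in capitals.
TCONS_00220432, bases 3424 to 3543: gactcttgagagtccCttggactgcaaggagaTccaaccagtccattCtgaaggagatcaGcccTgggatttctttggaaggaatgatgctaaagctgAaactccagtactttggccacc
TCONS_02780309, bases 2081 to 1962: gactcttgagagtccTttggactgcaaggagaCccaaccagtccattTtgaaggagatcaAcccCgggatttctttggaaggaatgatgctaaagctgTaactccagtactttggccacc

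No very long lncRNA passed the test between the stages. Pubertal and prepubertal libraries were compared by limma, a linear model with a spread shared across transcripts, on log2(FPKM + 1) over the 2925 lncRNA transcripts whose mean reached 0.1 FPKM, a limit that all 86 passed. Of the 86, 0 had a limma adjusted p-value (Benjamini-Hochberg) under 0.05, against 1 of 2925 (0.0342%), and 0 had an unadjusted one under 0.05, against 103 (3.52%). The smallest unadjusted limma p of the 86 was 0.122. Since each library is 1 goat, the p-values rest on the spread between these goats, which limma draws partly from the other transcripts tested. The median SD within a stage, on the log2 scale, was 0.166 for the 86 and 0.345 for all lncRNAs. The 86 were thus judged partly by a wider spread than their own, and a test with each transcript's own spread was not run. With 3 libraries in each stage the smallest p of an exact permutation test is 0.1. In bulk tissue, fewer cells of a type and less RNA per cell cannot be told apart.

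The estimated changes were small. Fold changes are given on the log2(FPKM + 1) scale, pubertal minus prepubertal, which understates the change of low values. The median over the 86 was 0.02, with quartiles of -0.05 and 0.12 and a range from -0.28 to 0.40, against a median of -0.03 over all lncRNAs tested. The fitted change was above 0 for 49 of the 86 (57.0%) and for 46.4% of all. With each library centred on its median it was above 0 for 59 of the 86 (68.6%) and for 52.0% of all.

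The precision of the comparison limits what could be seen. The 95% limma interval lay within 1 log2 unit on either side of 0 for 84 of the 86, and the intervals reached from -0.97 to 1.22. With a pseudocount of 0.1 in place of 1, which compresses low values less, this held for 48 of the 86. The median standard error was 0.20 for the 86 and 0.27 for all lncRNAs tested, whose spread enters the shared estimate. When transcripts of at least 4000 nt of both tables were fitted together, an analysis chosen after the data were seen, the median standard error of the 86 was 0.17. In that fit 0 of the 86 passed an adjusted or an unadjusted p of 0.05, the smallest unadjusted limma p was 0.0744, and the share of all 5803 with an unadjusted p under 0.05 was 4.83%.

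**Figure D3:**
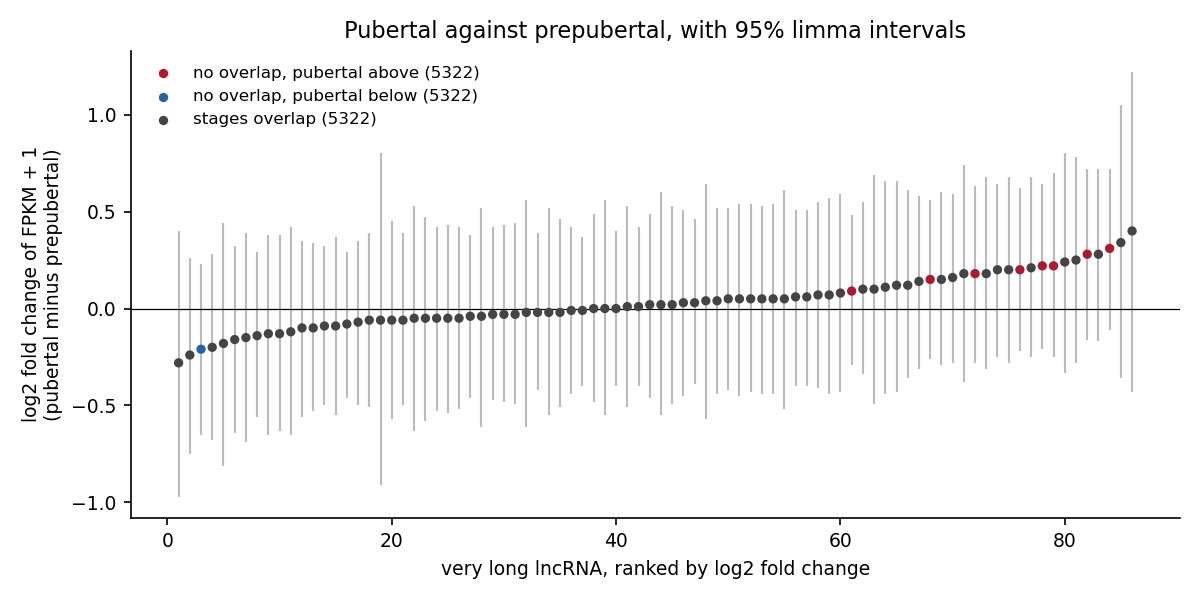
Log2 fold change of FPKM + 1 (pubertal minus prepubertal, y axis) of the 86 very long lncRNAs, ranked on the x axis, with 95% limma intervals as vertical bars; red and blue points are transcripts whose stages did not overlap and grey points the other 77. The points number 8 in red, 1 in blue and 77 in grey. The 5322 in brackets in the legend is the number of long coding transcripts and does not count these points. Every interval includes 0, and the red points lie at positive changes between 0.09 and 0.31.

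The stages did not overlap for 9 of the 86 (10.5%), 8 with all pubertal values above and 1 with all below, against 195 of 2925 lncRNAs (6.67%), 84 above (2.87%) and 111 below (3.79%). These 9 were named after their values were seen, and none passed the test above. A transcript at 0 in some library of each stage cannot separate the stages. All 86 were above 0 in all 6 libraries, but only 51.2% of all lncRNAs were, so shares over all lncRNAs are not a like comparison. With 3 libraries in each stage and no ties, random order alone separates the stages with a probability of 0.1. Without pubertal library 3 the stages did not overlap for 14 of the 86 (16.3%), 8 above and 6 below, against 14.7% of the lncRNAs tested, and the split was no longer one-sided. Beside TCONS_03153667, described above, the pattern was seen at low levels.

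TCONS_00220432 (XLOC_192357, 5143 nt), with no listed neighbour, had 0.933, 0.830 and 1.21 FPKM in the pubertal and 0.570, 0.651 and 0.597 FPKM in the prepubertal goats. It had the smallest p of the 86, with a log2 fold change of 0.31 (SE 0.17) and a limma adjusted p of 0.943. TCONS_02646799 (XLOC_1293475, 5659 nt) lies near ATXN7, which encodes a subunit of the SAGA transcription coactivator, and had 2.05, 1.58 and 1.86 FPKM against 1.22, 1.51 and 1.27 FPKM. Its log2 fold change was 0.28 (SE 0.18). The nearest values of the stages, 1.58 and 1.51 FPKM, were almost equal.

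TCONS_03267640 (XLOC_1554390, 4186 nt) lies near NRG3, a neuregulin that signals through the receptor ERBB4, and had 1.01, 1.14 and 1.17 FPKM against 0.617, 0.943 and 0.904 FPKM. TCONS_03696836 (XLOC_1802967), near the transcription factor gene CREB5, had 0.965, 0.983 and 1.16 FPKM against 0.632, 0.959 and 0.732 FPKM, and the nearest values again almost met. TCONS_00252205, near TBL1XR1, which encodes a subunit of a nuclear receptor corepressor complex, TCONS_01107014, with no listed neighbour, and TCONS_03153225, near LOC102176583, had log2 fold changes of 0.18, 0.15 and 0.22.

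TCONS_00792688 (XLOC_361991, 6082 nt) was the only one with every pubertal value below. It lies near LRRTM4, which encodes a synaptic adhesion protein, and had 1.21, 0.974 and 1.36 FPKM in the pubertal and 1.71, 1.38 and 1.47 FPKM in the prepubertal goats. Its log2 fold change was -0.21 (SE 0.18). The nearest values, 1.36 and 1.38 FPKM, differed by less than the spread within either stage.

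None of the 5 most abundant transcripts had a 95% limma interval that left out 0. The log2 fold change was 0.09 (SE 0.16) for TCONS_03153667, -0.01 (SE 0.18) for TCONS_00895218, -0.02 (SE 0.20) for TCONS_04948042, 0.25 (SE 0.22) for TCONS_01599241 and -0.06 (SE 0.21) for TCONS_03464510. For the longest, TCONS_01233022, it was 0.12 (SE 0.23). Quantile normalization gave 0.39 for TCONS_01599241, with an unadjusted limma p of 0.0904. The signs for TCONS_00895218 and TCONS_04948042 turned when each library was centred on its median. The other members that the study's tables name, TCONS_03267786 near NRG3 and TCONS_03342539, had 0.05 (SE 0.19) and 0.11 (SE 0.23), with means of 1.29 and 1.09 FPKM.

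The libraries differed more than the stages did. Pubertal library 3 was the highest of the 6 for 42 of the 86 (48.8%). That share was 35.3% for the 51 long transcripts of loci with several transcripts. It was 21.2% for the 1371 lncRNAs under 4000 nt and 24.7% for the 5322 coding transcripts of at least 4000 nt. These last classes hold only transcripts above 0 in all libraries. In that library the very long lncRNAs stood a median of 0.15 log2 units above their own mean, 63 of 86 above it, against 0.03 for the shorter lncRNAs and 0.01 for the long coding transcripts. Pubertal 2 was highest for 2 of the 86 and lowest for 25, with a median of -0.12, and prepubertal 1 was lowest for 24.

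Among the 86, the share that was highest in pubertal 3 was lower in classes of higher GC content, which was not tested. It was 22 of 38 (57.9%) below 40% GC, 16 of 35 (45.7%) at 40 to 50% GC and 4 of 13 (30.8%) above 50% GC. Among the shorter lncRNAs the shares were 23.6%, 20.5% and 21.2% in the same classes. Without this library the median log2 fold change of the 86 was -0.04, against -0.05 over all lncRNAs, and it was above 0 for 38 of the 86.

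The same library stood apart in some marker genes, named after their values were seen. The choroid plexus gene TTR was at 309 FPKM in pubertal 3 and between 1.14 and 53.4 FPKM in the others. POMC, placed here in the hypothalamic list, was at 429 FPKM against 22.9 to 85.1 FPKM. The pituitary gene GH1 was at 7.79 FPKM in pubertal 3 and listed at 0 in the other 5. POU1F1, of the same list, was at 0.539 FPKM in pubertal 3 and at 0.0821 FPKM or less in the others. CGA, the most abundant gene of the pituitary list, was instead lower in pubertal 3, at 39.4 FPKM, than in pubertal 1 and 2, at 50.1 and 62.5 FPKM. The part of these differences in the levels of the very long lncRNAs was not tested.

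**Figure D4:**
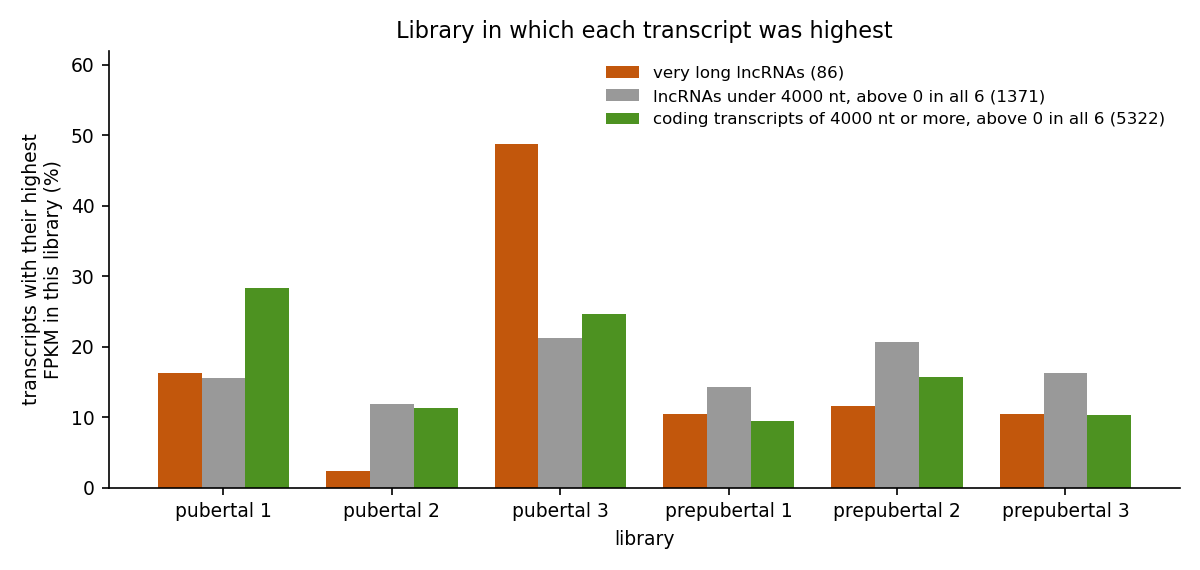
Share of transcripts (y axis, percent) that had their highest FPKM in each of the 6 libraries (x axis), for the 86 very long lncRNAs (orange), 1371 lncRNAs under 4000 nt (grey) and 5322 coding transcripts of at least 4000 nt (green), all above 0 in all 6 libraries. The orange bar reaches 48.8% in pubertal 3 and 2.33% in pubertal 2. For the 51 long transcripts of loci with several transcripts, not drawn, these shares were 35.3% and 3.92%.

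The genes next to the very long lncRNAs included genes of neurons. The study's list of genes within 10 kb gives at least 1 neighbour for 51 of the 86 (59.3%). That share was 44.4% for lncRNAs under 4000 nt of loci with 1 transcript, and 54.0% for those above 0 in all 6 libraries. For the 86 the list gives 62 pairs with 56 genes. In 60 of these pairs the gene had a mean of at least 0.1 FPKM, and the pairs with LOC102174613 and ZNF597 were left out. Genes of synapse and cell adhesion on it include LRRTM4, NLGN1, NCAM2, NEGR1 and TENM2, and genes of ion transport include KCNJ2, KCNJ16, KCNIP4 and NKAIN2. NRG3 is listed for 3 of the 86, and FAM155A, LRRTM4, NEGR1 and NKAIN2 for 2 each, so 11 of the 86 share a neighbour with another. These genes were named after the list was read, and no enrichment was tested.

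The levels of the very long lncRNAs and their neighbours tended to vary together over the 6 libraries. Each neighbour was summed over its transcripts, while each lncRNA is a single transcript. Pearson's r on log2(FPKM + 1) had a median of 0.472 over the 60 pairs, from -0.728 to 0.925, and was above 0 in 43 (71.7%). For 678 pairs of lncRNAs under 4000 nt that were above 0 in all 6 libraries it had a median of 0.105 and was above 0 in 58.3%. These are descriptions over 6 libraries that share depth, dissection and the differences of pubertal 3 given above, and no p-value is attached. As a class, the lncRNAs under 4000 nt also had fewer estimated fragments each, as given above. The part of this in their lower r was not tested. An absolute r above 0.95 was found in 0 of the 60 pairs and in 2 of the 678. Positions and strands were not analysed here, so fragments shared between a lncRNA and an overlapping neighbour were not tested.

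The highest r, 0.925, joined TCONS_02120800 (XLOC_1082754, 4114 nt) to MCM6, a subunit of the replicative helicase. The lncRNA had 3.02, 2.09 and 1.55 FPKM in the pubertal and 2.004, 2.62 and 1.69 FPKM in the prepubertal goats, and MCM6 had 32.4, 28.2 and 24.8 FPKM and 25.5, 33.4 and 25.97 FPKM. In both, pubertal 1 and prepubertal 2 were the highest libraries. DAB1, an adaptor of reelin signalling, followed at 0.863 with TCONS_03452745, XRN2, a nuclear exoribonuclease, at 0.818 with TCONS_01069884, and BICC1, an RNA-binding protein, at 0.773 with TCONS_03287056.

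The lowest r belonged to FAM155A, which encodes a subunit of the sodium leak channel complex. It was -0.728 with TCONS_00906219 and -0.682 with TCONS_00935616, and both pairs share the values of that gene. Members of one neighbourhood did not always go together, since NEGR1 had an r of 0.292 with TCONS_03450042 and of -0.531 with TCONS_03568048. The 3 lncRNAs near NRG3 had 0.4995, 0.661 and 0.674. The neighbours, summed over their transcripts, were mostly more abundant than the lncRNAs, each a single transcript. PSD3 had a mean of 48.5 FPKM beside 29.8 FPKM for TCONS_03153667, and NKAIN2 35.7 FPKM beside 1.27 FPKM for TCONS_04793913.

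**Figure D5:**
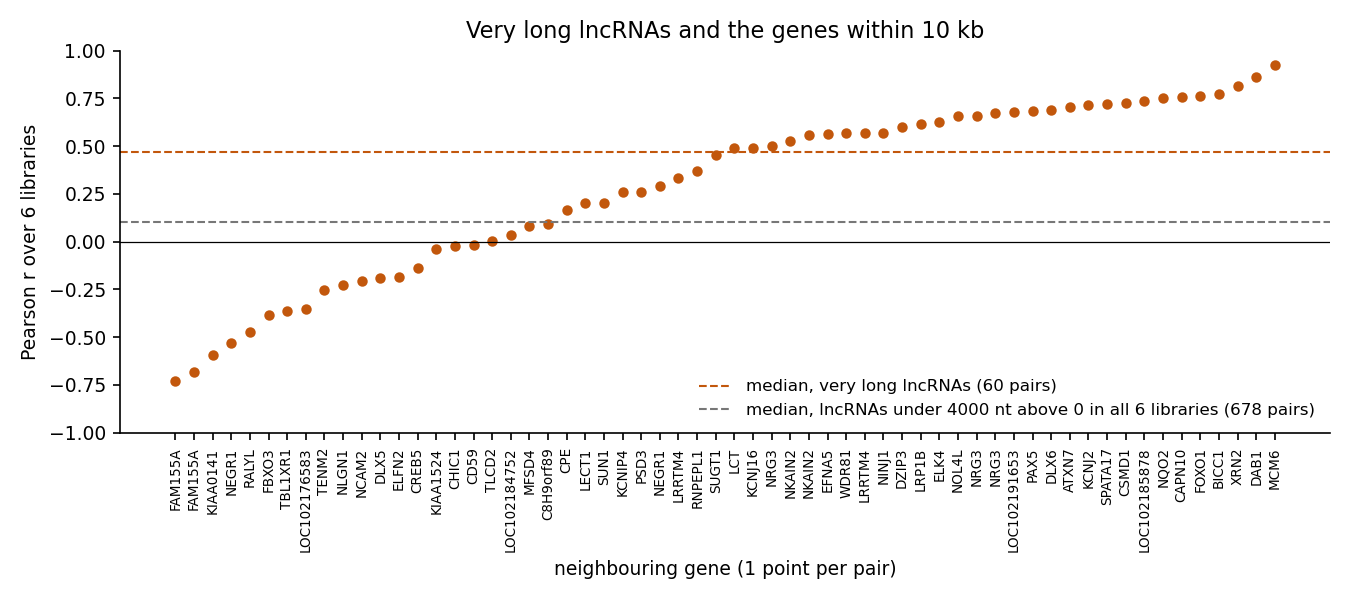
Pearson's r over 6 libraries (y axis) between each very long lncRNA and a gene within 10 kb (x axis, 1 point for each of 60 pairs, ordered by r); dashed lines are the medians of these pairs (orange, 0.472) and of 678 pairs of shorter lncRNAs above 0 in all 6 libraries (grey, 0.105). Points run from FAM155A at -0.728 to MCM6 at 0.925.

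Long noncoding transcripts in the nucleus meet paraspeckle proteins, the exosome that degrades RNA, the writers of the m6A mark and the machinery of 3′ end cleavage. Of 30 such genes, 28 were in the mRNA table and all 28 had a mean of at least 1 FPKM, so this machinery was expressed throughout. Levels ran high for MATR3, a nuclear matrix RNA-binding protein, at a mean of 347 FPKM, and for HNRNPK at 302 FPKM, and low for the cleavage factor CPSF1 at 3.33 FPKM. The paraspeckle core genes SFPQ, NONO and PSPC1 had means of 49.6, 82.2 and 50.3 FPKM. Between the stages, 0 of 51 transcripts of these genes had a limma adjusted p under 0.05, against 0 of 23821 mRNA transcripts (0%), and 0 had an unadjusted one under 0.05, against 1159 (4.87%). The median log2 fold change of the 51 was -0.05. Without pubertal library 1, 6 of the 51 had an unadjusted p under 0.05, against 10.5% of all mRNA transcripts in the same fit. Without pubertal library 2, 2 of 52 did, against 6.14%.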

How the data were processed

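The authors mapped paired-end reads with TopHat, built transcripts from them by Scripture and Cufflinks 2.1.1, kept as lncRNAs those without coding potential, and deposited FPKM values per transcript and library. The genome build is not given in the sources used here. The deposited group means, fold changes, p-values and q-values of the authors' Cuffdiff 2.1.1 run were not used, and per-sample columns not used numbered 0. Lengths and sequences came from the deposited tables.

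Members and gene lists were chosen with earlier results of these data known. Stages were compared with limma 3.58.1 in R 4.3.3 (trend, two-sided) on log2(FPKM + 1), over lncRNA transcripts whose mean reached 0.1 FPKM, with Benjamini-Hochberg adjustment over all of them and a threshold of 0.05. The mRNA table was fitted in the same way. Shared stretches were found with blastn 2.17.0, and other steps used Python 3.11.15. FPKM holds no read counts, so no counting interval can be given.

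The lncRNAs named were the 5 most abundant, the 5 longest, those past an unadjusted p of 0.05 without overlap (there was none), the 2 highest and 2 lowest in GC content, those listed at 0 (there was none), those in the study's tables, and 2 on each side of the length limit. Any other was named after its values were seen. A search for miRNA hairpins, promoters and proteins was not run. Alternatives were other pseudocounts, minima, normalizations, length limits and fits, and leaving out each library.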

Additional observations from a re-analysis of the deposited data

How the results depend on the processing

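No very long lncRNA had a limma adjusted or unadjusted p under 0.05 under any alternative tried: a pseudocount of 0.1, no minimum or a minimum mean of 1 FPKM, quantile normalization, centring on the median, scaling to the mRNA table, no trend, both tables together, the long transcripts of both tables (chosen after seeing the data), the replicate block, length limits of 5000 nt (59 members) and 3000 nt (147), all 137 long lncRNAs, and each library left out. Each of these fits drew its spread partly from other transcripts. The median log2 fold change of the 86 stayed between 0.02 and 0.06, except that it ran from -0.04 to 0.09 over the libraries left out, with -0.04 without pubertal library 3. The excess of level over shorter lncRNAs rose from 1.21 to 4.16 log2 units in FPKM times length, since length then no longer divides it. Detection fell from 100% to 41.9% at 1 FPKM. The median GC content lay between 40.4% and 41.6%, and the share of G and C over all bases pooled was 42.0%.

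Among single transcripts, the log2 fold change of TCONS_00895218 was 0.03 and that of TCONS_04948042 0.01 after centring on the median. Quantile normalization gave 0.11 for TCONS_04948042 and 0.03 for TCONS_03464510, and moved TCONS_01599241 from 0.25 to 0.39 and TCONS_03478792 from 0 to 0.13. With each library left out in turn, the change ran from -0.20 to 0.04 for TCONS_00195666, from -0.04 to 0.13 for TCONS_00221322, from -0.07 to 0.03 for TCONS_00895218, from -0.12 to 0.07 for TCONS_01056985, from -0.04 to 0.22 for TCONS_01233022 and from -0.06 to 0.15 for TCONS_03267786. It ran from -0.01 to 0.27 for TCONS_03342539, from -0.15 to 0.06 for TCONS_03464510, from -0.10 to 0.10 for TCONS_03478792, from -0.03 to 0.20 for TCONS_04793913 and from -0.13 to 0.03 for TCONS_04948042. The cause was not tested.

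The replicate numbers gave no sign of pairing, as deviations of same-numbered libraries correlated between -0.023 and 0.0375. With the replicate number as a block, 0 of the 86 had an adjusted or unadjusted p under 0.05, their median log2 fold change was 0.02, and 1 transcript of the 51 for nuclear RNA handling had an unadjusted p under 0.05, against 4.83% of all mRNA transcripts. That count ran from 0 to 6 over the libraries left out.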

Other observations

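Levels varied widely between goats in 4 very long lncRNAs that were named after their values were seen. TCONS_02928852 (XLOC_1409383, 8667 nt, no listed neighbour) had 0.316, 0.359 and 1.93 FPKM in the pubertal and 0.184, 0.467 and 0.322 FPKM in the prepubertal libraries. Pubertal 3 was 4.12 times the next highest library, and this transcript had the largest fitted change of the 86, 0.40 on the log2 scale (SE 0.34), with overlapping stages.

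TCONS_02780309 (XLOC_1326224, 5179 nt), near NQO2, which encodes a quinone reductase, had 3.68 FPKM in prepubertal 3 and between 1.42 and 1.72 FPKM in the other 5. NQO2 was itself highest in prepubertal 3, at 35.3 FPKM against 20.4 to 29.5 FPKM in the others, and Pearson's r of the pair over the 6 libraries was 0.754, given as a description. These were the 2 of the 86 whose highest library exceeded the next by over 2-fold.

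TCONS_04790391 (XLOC_2282606, 9147 nt, no listed neighbour) had 2.19, 1.48 and 0.908 FPKM in the pubertal and 2.29, 2.16 and 0.629 FPKM in the prepubertal goats. It was lowest in the third library of each stage, which share only a number. TCONS_03726517 (XLOC_1779358, 4687 nt) lies near DLX5 and DLX6, homeobox genes of inhibitory neurons, and had 0.356, 0.308 and 0.421 FPKM against 0.583, 1.01 and 0.321 FPKM. DLX6 was also highest in prepubertal 2, at 2.36 FPKM, with an r of 0.687, while DLX5 was highest in prepubertal 3 and had an r of -0.190. None of these goats can be told apart from its library, and the cause was not tested.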
